A study of Sardinops sagax and Scomber japonicus with 20 samples.

Results

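MID1IP1 and the enzymes that make fatty acids were followed in livers of 2 coastal fish species after a short exposure to EE2 (17α-ethynylestradiol), a man-made estrogen used in birth control pills. The members were 9 genes chosen by human symbol: ACLY, ACACA, ACACB, MID1IP1, FASN, SCD, ELOVL6, ME1 and PGD. The sardine table held 9 rows for 6 of them among its 6716 rows, and 7 of them had 9 rows among the 9191 of the mackerel table. ACACB had no row in sardine, and SCD and ME1 had none in either table. The 4 groups, all of adult males kept in flow-through seawater at about 17 °C and fed pellets, were Pacific sardines (Sardinops sagax) given 12.5 pM EE2 for 5 h, unexposed sardines, chub mackerel (Scomber japonicus) given the same exposure, and unexposed mackerel, with 5 fish in each. Liver RNA was sequenced, and 1 comparison table per species was analysed.

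Fatty acid synthesis starts from citrate, which ACLY splits into acetyl-CoA. The acetyl-CoA carboxylases ACACA and ACACB turn that into malonyl-CoA, and MID1IP1 promotes the assembly of the carboxylases into active filaments in mammals. FASN builds palmitate from malonyl-CoA, ELOVL6 lengthens it, SCD puts in a double bond, and PGD and ME1 supply NADPH. In vertebrate liver these genes are known targets of the sterol- and carbohydrate-responsive transcription factors, and the product is stored as triglyceride or exported.

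Neither table records which group stands on top of the fold change, so the groups are called the positive side and the negative side, and no difference is assigned to EE2. Fold changes are on the log2 scale of the authors' fit, and a row is called at an adjusted p under 0.05 in the authors' deposited table. The tables hold no values per fish. Their rows are reference genes of other fish, zebrafish records in sardine and fugu genes in mackerel, not genes of the species itself. How well the reads of each species matched these references is not known. The mean normalized counts lay on a grid of whole reads, from which reads were recovered, and dividing reads by the size factor of the library gives scaled reads. The 5 libraries of the sardine positive side could be read apart, and they are numbered 1 to 5 here by size factor, largest first. The positive-side level of a sardine row is the mean of their scaled reads. Sardine ratios with a counting interval instead divide their pooled reads by their summed size factors, so they differ from ratios of levels. The sardine negative side was 1 number, and each side of the mackerel was 1 number. With 1 number for a side, the spread between its fish cannot be seen, and the adjusted p of a comparison with that side leaves that spread out. The sardine negative number matched the deposited fold changes as 5 equal columns, not as 1. Entered that way, 1 count stands for 5 fish, and the adjusted p understates its counting error too. In mackerel how the numbers entered the test is not known. For FASN there, with 3 reads against 7, the authors' test gave p 0.00158. An exact binomial test of the 2 read totals gave p 0.123. The authors' test called 890 mackerel rows positive and 680 negative, against 190 and 184 by the exact test. The authors' adjusted p thus understates counting error in thinly covered mackerel rows such as FASN. Whether the fish of a group came from separate tanks is not stated.

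**Figure D1:**
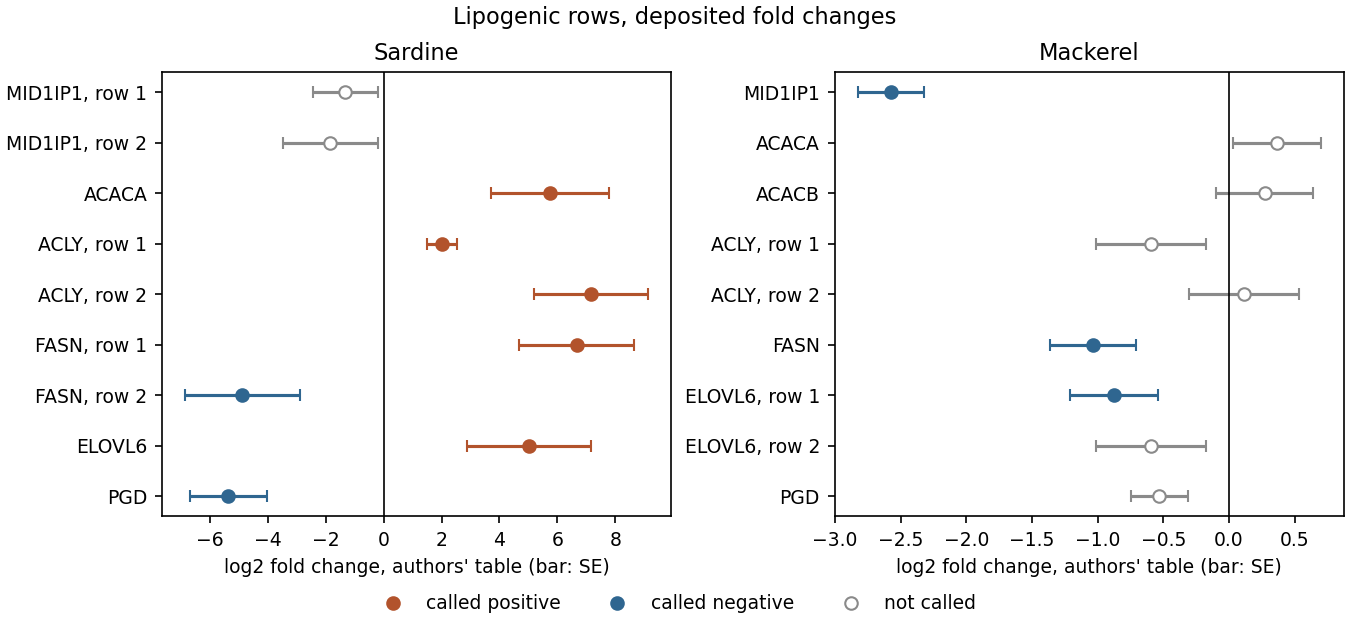
Log2 fold change of each member row in the authors' deposited tables, sardine left and mackerel right, with bars of 1 SE; filled points are called and open points are not. In mackerel MID1IP1 stands apart at -2.58, and in sardine the positive and negative calls lie on both sides of 0.

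Among the mackerel members MID1IP1 had the largest difference. Its row (fugu gene ENSTRUG00000013902) had 470 positive-side reads, against 2477 negative-side reads. After scaling these were 428 and 2789 reads, 6.52-fold more on the negative side (95% counting interval 5.90 to 7.21). In the authors' deposited table the log2 fold change was -2.58 ± 0.25 (SE; adjusted p 9.5e-22). Of the reads recovered over all rows of the table, the row took 0.125% on the positive side (exact interval 0.114% to 0.137%). On the negative side it took 0.745% (0.716% to 0.775%). It ranked 43 by mean normalized count, 11 by adjusted p and 20 by absolute fold change in the table. Of the 105 rows with at least 1000 reads, the next lowest fold change after MID1IP1 was -1.31, the highest was 2.36 and the median was -0.20. Among those 105 rows 3.81% were called positive and 17.1% negative.

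The mackerel enzymes themselves were covered by few reads. ATP citrate lyase ACLY had 1 read against 2 in one row (ENSTRUG00000015879) and 2 against 1 in the other (ENSTRUG00000010668), given here as positive against negative side. The log2 fold changes in the authors' deposited table were -0.60 ± 0.42 and 0.11 ± 0.42, with adjusted p of 0.291 and 0.841. The row with 1 against 2 reads had the same values as 266 other rows of the table, among them the second ELOVL6 row. ACACA, the carboxylase of the cytosol, had 6 reads against 3 (ratio 1.62, 95% counting interval 0.345 to 10.0). ACACB, the form that sits at mitochondria in mammals, had 4 against 2 (ratio 1.62, 0.232 to 17.9). Neither carboxylase was called, at 0.36 ± 0.34 and 0.27 ± 0.37 in the authors' deposited table.

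Fatty acid synthase FASN (ENSTRUG00000004461) had 3 positive-side reads, against 7 negative-side reads. The authors' deposited table gave -1.04 ± 0.33 and called it negative (adjusted p 0.0109). The counting interval of its ratio of 0.347 ran from 0.0578 to 1.52 and so included 1. The better covered ELOVL6 row (ENSTRUG00000015611) was alike, with 3 reads against 6, which makes a ratio of 0.404 (0.0654 to 1.89). The authors' deposited table gave it -0.88 ± 0.33 and an adjusted p of 0.039. PGD, an NADPH-producing enzyme of the pentose phosphate pathway, had 35 positive-side reads, against 42 negative-side reads, a ratio of 0.674 (0.418 to 1.08). The authors' deposited table did not call it, at -0.53 ± 0.22 and an adjusted p of 0.0613, but it passed 0.05 when p was adjusted only over rows with a mean of at least 10.

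**Figure D2:**
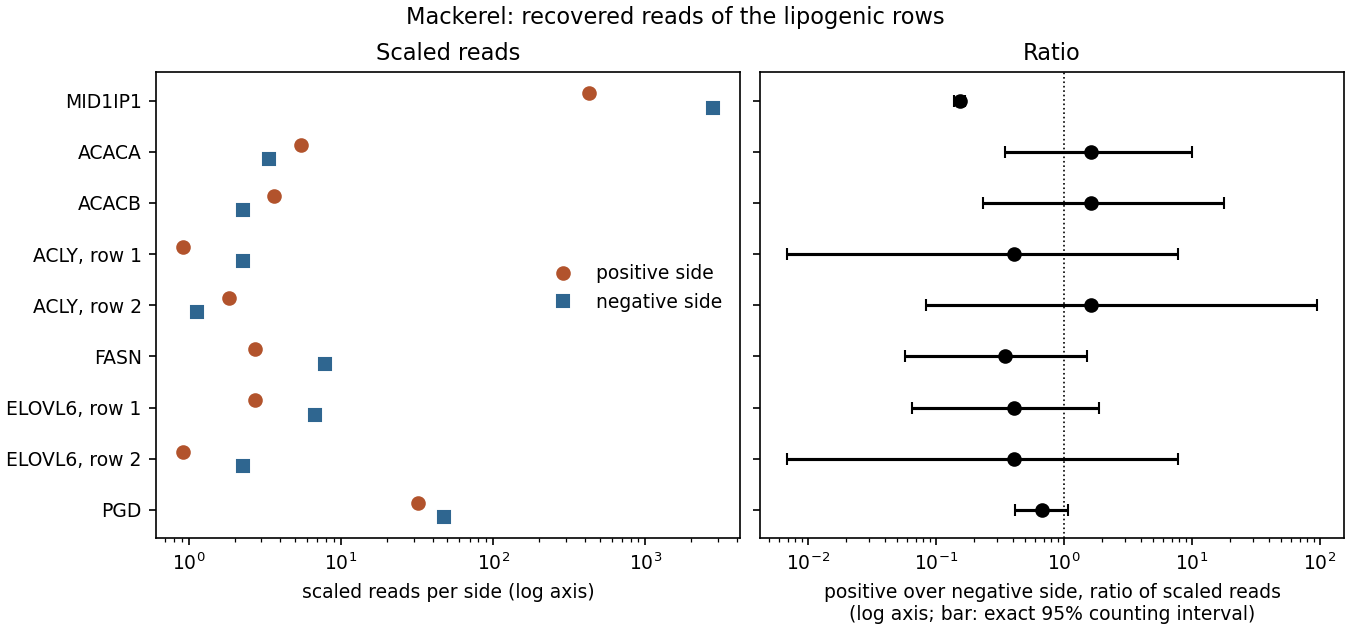
Mackerel member rows: scaled reads of the positive side (circles) and negative side (squares) on a log axis at left, and their ratio with its exact 95% counting interval at right. The interval lies wholly below 1 for MID1IP1 (0.139 to 0.169) and spans 1 for the other 8 rows.

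In all, 0 of the 9 mackerel rows were called positive and 3 negative by the authors' DESeq2 test, MID1IP1, FASN and 1 ELOVL6 row. At an unadjusted p under 0.05 these counts were 0 and 4. Of the 6319 mackerel rows that have an adjusted p, 14.1% were positive calls and 10.8% negative calls. When the recovered totals were compared by an exact binomial test, adjusted over all 9191 rows, the test called 0 member rows positive and 1 negative, MID1IP1, where it called 2.07% of all rows positive and 2% negative. This test compares 2 totals of reads, not fish. The 8 rows other than MID1IP1 together had 55 reads against 65 (ratio 0.684, counting interval 0.469 to 0.995), and without PGD the 7 rows had 20 against 23 (0.703, 0.366 to 1.34).

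In sardine 5 of the 9 member rows were called positive and 2 negative, against 30.5% and 16.1% of 6600 rows of the table. The calls rested on reads of 1 side only in 5 of these 7 rows. Of the 4 rows with reads on both sides, ACLY was called positive, PGD was called negative, and the 2 MID1IP1 rows were not called.

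The curated ACLY record (NM_001002649.1) was the best covered sardine member, with a mean normalized count of 15.4. Its scaled level averaged 24.7 reads in the 5 positive-side libraries, against 6.20 on the negative side, where it had 7 reads. The authors' deposited table gave 2.00 ± 0.51 (SE; adjusted p 0.000995). Its reads in the single positive-side libraries could not be fixed, since 15 sets of whole numbers fitted the mean. Of these, 2 also held 7 negative-side reads, 54, 32, 22, 13 and 4 reads or 8, 1, 9, 80 and 0. A second, predicted ACLY record (XM_001334159.2) had 22, 12, 3, 1 and 4 reads in the positive-side libraries and 0 on the negative side. Scaled, these were 18.0, 10.5, 3.88, 1.30 and 5.68 reads, so all 5 libraries held the record and they differed widely. The positive-side level was 2.97 times the level of a floor of 3 negative-side reads. Such a fold over the floor leaves out the counting error of the positive side. The authors' deposited table called it positive with an adjusted p of 0.00224.

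The single ACACA record with sardine reads (XM_001919780.1) had 2, 5, 0, 1 and 5 reads in the positive-side libraries and 0 on the negative side. Its positive-side level was 1.09 times the floor, but this rests on single libraries. Without library 5 the level was 1.83 scaled reads, under the floor, against 2.88 with all 5, and without library 2 it was 2.51, also under the floor. The authors' deposited table called it positive with an adjusted p of 0.0191, and 4 of 5 libraries held reads.

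FASN had 2 predicted records in sardine, which were called in opposite directions. One (XM_682295.3) had 6, 14, 3, 5 and 0 reads in the positive-side libraries and 0 on the negative side. Its positive-side level was 2.08 times the floor, and the authors' deposited table gave an adjusted p of 0.00514. The other (XM_677883.3) had 0 reads in all 5 positive-side libraries and 2 on the negative side. The authors' deposited table called it negative, adjusted p 0.0354, and 150 other rows had the same values. Its negative-side level of 1.77 scaled reads lay above the level of a floor of 3 positive-side reads. No fold is given for it, because it rests on 2 reads, fewer than the 3 of the floor. The 2 records share a gene name, and how reads were divided between such records is not given in the sources used here, so each record's value is uncertain. Joined, they held 28 positive-side reads, against 2 negative-side reads, a ratio of 3.43 whose counting interval, 0.866 to 29.7, included 1.

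**Figure D3:**
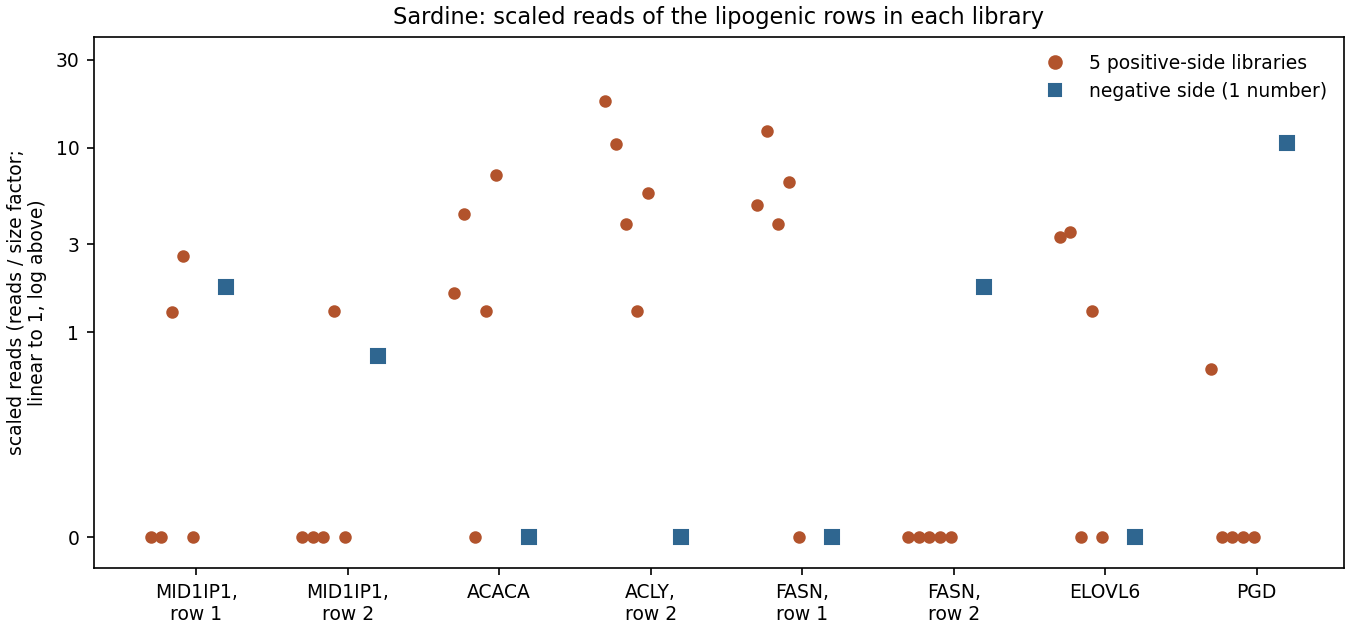
Scaled reads of 8 sardine member rows in the 5 positive-side libraries (circles, left to right by size factor) and on the negative side (square); the axis is linear to 1 and logarithmic above, and row 1 of ACLY, not resolved by library, is left out. ACACA, row 2 of ACLY, row 1 of FASN and ELOVL6 sit at 0 on the negative side, and PGD has 0.820 in 1 positive-side library, against 10.6 on the negative side.

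ELOVL6 (NM_201500.1) had 4, 4, 0, 1 and 0 reads in the positive-side libraries and 0 on the negative side. The authors' deposited table called it positive with an adjusted p of 0.0459, but its positive-side level of 1.62 scaled reads lay under the floor of the negative side, so no fold is given. PGD (NM_213552.1) had 1 read in 1 positive-side library, 0 in the other 4, and 12 on the negative side. The ratio was 0.0204 (95% counting interval 0.000478 to 0.138), and the authors' deposited table gave -5.36 ± 1.33 (adjusted p 0.000677). Without library 1 PGD had 0 positive-side reads.

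Both MID1IP1 records with sardine reads were near the limit of detection. NM_213439.1 had 0, 0, 1, 2 and 0 reads in the positive-side libraries and 2 on the negative side, and a ratio of 0.368 (0.0421 to 4.40). NM_131335.1 had 0, 0, 0, 1 and 0 reads in the positive-side libraries and 1 on the negative side (ratio 0.245, 0.00312 to 19.3). Library 4 held most of these: without it the level of NM_213439.1 was 0.323 scaled reads, against 0.780 with all 5, and NM_131335.1 had 0 positive-side reads. The log2 fold changes of the 2 records in the authors' deposited table were -1.32 ± 1.12 and -1.84 ± 1.64, with adjusted p of 0.286 and 0.309. A difference of the size found in mackerel, 6.52-fold, lies inside both intervals and was not detectable at this depth.

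The 8 sardine rows resolved by library held 35, 35, 7, 11 and 9 reads in the positive-side libraries, or 28.7, 30.7, 9.06, 14.3 and 12.8 after scaling, and 17 reads, 15.1 scaled, on the negative side. The 2 libraries with the largest size factors were thus also the highest after scaling, and the negative side lay inside the range of the 5. Summed over those rows the ratio, from pooled reads over summed size factors, was 1.40 (0.830 to 2.50). That sum leaves out the curated ACLY record, and PGD alone gave 12 of its 17 negative-side reads. All 9 rows summed to 43.8 scaled reads on the positive side, against 21.3 on the negative side. Over all rows of the sardine table the sums were 215801 and 110948, so the whole table also lay higher on the positive side.

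**Figure D4:**
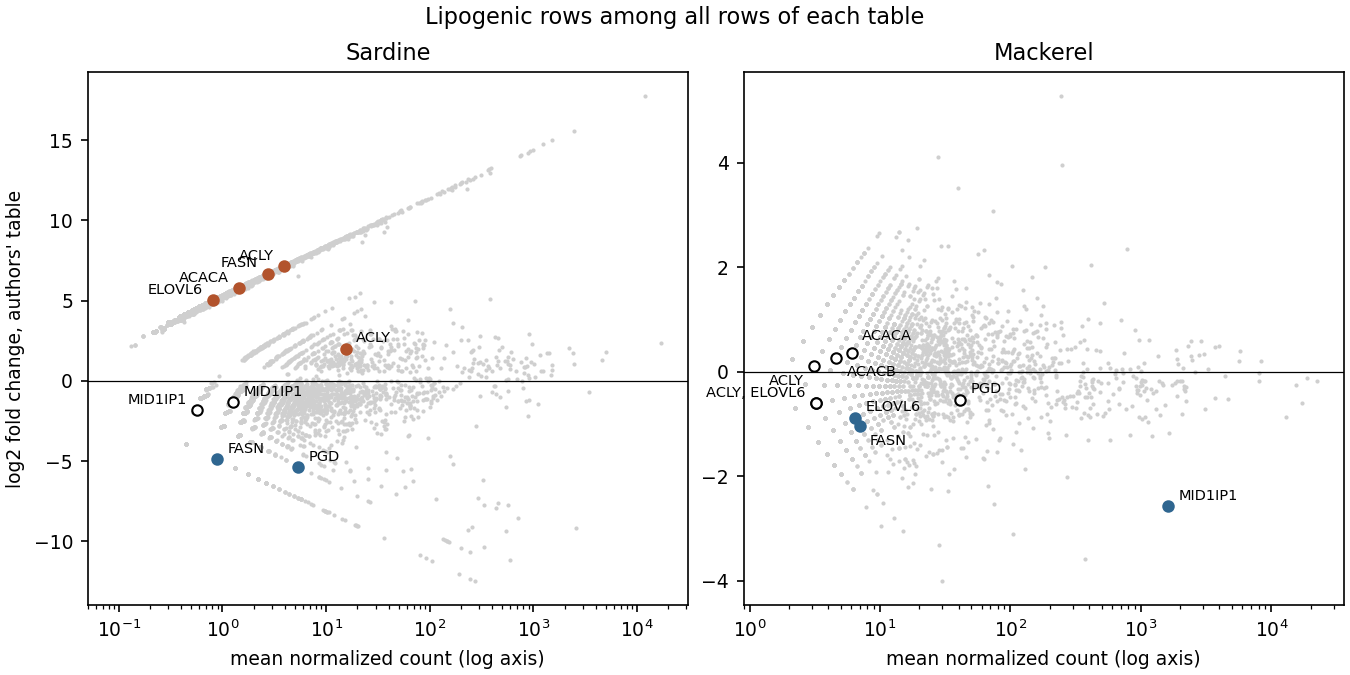
Log2 fold change against mean normalized count (log axis) for all rows of each table in grey, with member rows marked, filled where called. In sardine 4 member rows lie on the upper diagonal formed by rows with 0 negative-side reads, and in mackerel MID1IP1 lies below the rows of its own abundance.

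Sardine record types differed in reads and calls. A negative side at 0 reads was found in 82.8% of 2199 predicted records and in 19.7% of 4517 curated ones. Of predicted records with an adjusted p, 52.8% were called positive and 4.12% negative, and of curated ones 19.7% and 21.8%. The members counted 4 predicted records, ACACA, 1 of ACLY and both of FASN, of which 3 were at 0 on the negative side, and 5 curated ones, of which ELOVL6 was. Among all rows at 0 on the negative side 60.7% of 2622 were called positive, and among rows with reads on both sides 13.2% of 3171 were called positive and 24.4% negative. The part of the record type in the member calls was not tested.

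The sardine sides also differed in the RNA of muscle and of other cell types. Over all rows of the sardine table scaled reads summed to 215801 on the positive side, against 110948 on the negative side. Striated muscle markers summed to 41.9 scaled reads on the positive side, against 11431 on the negative side, with 2 of 41 rows called positive and 33 negative. Of the 18 muscle markers with a row, MYL7 was at 0 on the positive side and TPM2 on the negative side, and the other 16 had reads on both. Hepatocyte markers summed to 43717 scaled reads on the positive side, against 9180 on the negative side, and 19 of 20 rows were called positive. Of the 12 adipocyte markers 6 had rows in sardine, and 6 of these 7 rows were called positive, at 82.9 against 7.97 scaled reads. Most of that sum came from genes that liver also expresses, with GPD1 at 48.4, RBP4 at 18.3 and ADIPOR2 at 12.6 on the positive side. LPL had 1.54 and CIDEC 2.03 there, both against 0, and PNPLA2 had 0 against 0.885. The defining fat genes ADIPOQ, PLIN1, FABP4 and LEP had no row. Endothelial and stellate markers summed to 10.3 scaled reads on the positive side, against 107 on the negative side. Leukocyte markers had 10.6 against 62.0, erythrocyte markers 535 against 840 and exocrine pancreas markers 85.2 against 9.74. Fewer liver cells and less RNA per cell cannot be told apart in bulk tissue. The part of these differences in the sardine calls, those of ACLY, PGD and the pathway lists below among them, was not tested. In mackerel the sides lay closer, with hepatocyte markers at 43236 and 60492 scaled reads, striated muscle at 51.9 and 81.1, and adipocyte markers at 236 and 194.

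Set side by side, 6 members had rows in both species. MID1IP1 had negative fold changes in both, called in mackerel and not in sardine. PGD was also negative in both, called in sardine and not in mackerel. ACACA had positive fold changes in both, called in sardine and, at 0.36 in the authors' deposited table, not called in mackerel. Both ACLY rows were called positive in sardine, and the 2 mackerel rows, of 3 reads each, lay on either side of 0 and were not called. FASN was called negative in mackerel and in both directions in sardine. ELOVL6 was called negative in 1 of its 2 mackerel rows and positive in its single sardine row, which had 0 negative-side reads. Whether any of these differed between species was not tested, and the positive side may stand for different groups in the 2 tables.

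Around the members 127 genes of lipogenesis, in 6 lists, had 87 rows in sardine and 120 in mackerel. In sardine 41 of 85 tested rows were called positive (48.2%) and 11 negative (12.9%), against 30.5% and 16.1% over all rows. The median log2 fold change was 2.19, against -0.19 over all rows. Rows at 0 on a side were then put at their fold over the floor, or at no change where that was under 1. The median so found was 0 for the lists, against -0.19 over all rows. In scaled reads the floor is lower on the positive side, so the sides were not treated alike. An ELOVL7 row with 1 negative-side read was put at -0.44, and RPE with 12 positive-side reads at 0. Among the 40 list rows with reads on both sides 13 were called positive and 8 negative. Over all rows with reads on both sides 419 of 3171 were called positive (13.2%) and 773 negative (24.4%). The list rows thus had the larger positive share and the smaller negative share, a difference that was not tested. In mackerel 23 of 94 tested rows were called positive (24.5%) and 11 negative (11.7%), against 14.1% and 10.8% over all rows. The median was 0.04, the same as the median over all rows. The exact test of recovered reads called 4 of the 120 mackerel rows positive and 1 negative, where it called 2.07% and 2% of all rows.

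**Figure D5:**
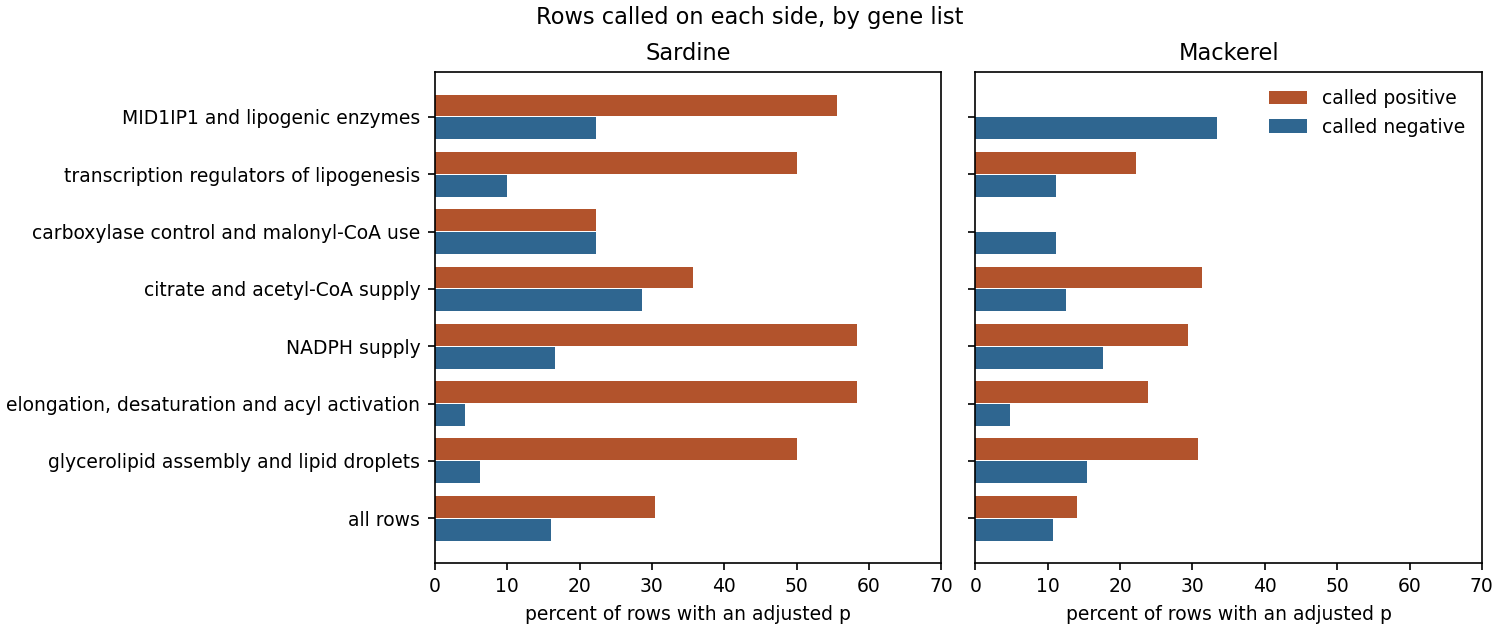
Percent of rows with an adjusted p that were called positive (upper bar) and negative (lower bar) in each gene list and over all rows, sardine left and mackerel right. The member rows reach 55.6% positive in sardine and 33.3% negative in mackerel, over 9 rows each.

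Calls in the NADPH supply list lay on both sides in both species. The list also holds enzymes that rearrange sugars downstream of PGD in the pentose phosphate pathway and do not themselves make NADPH. Of these, RPE was called positive in mackerel with 18 reads against 3, while TALDO1 was called negative with 6 against 20. TKT was called negative in 2 of 3 mackerel rows, with 18 against 23 and 0 against 6. Of the 17 tested mackerel rows of the NADPH list 5 were called positive (29.4%) and 3 negative (17.6%), against 14.1% and 10.8% over all rows. The exact test called 1 positive and 1 negative. In sardine the mitochondrial enzymes IDH2 and NNT were called negative and the cytosolic IDH1 positive, which the authors' deposited table put at -6.16 ± 0.31 for IDH2, -5.59 ± 0.84 for NNT and 1.88 ± 0.62 for IDH1. The scaled level of IDH2 was 9.10 on the positive side, against 640 on the negative side. That side also held most of the striated muscle RNA, whose part in these calls was not tested. Of the 12 tested sardine rows of the list 7 were called positive (58.3%) and 2 negative (16.7%), against 30.5% and 16.1% over all rows. Among them 7 rows had 0 negative-side reads.

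Citrate supply was mixed in sardine, with 5 of 14 tested rows called positive (35.7%) and 4 negative (28.6%), against 30.5% and 16.1% over all rows. Citrate synthase CS was called negative at -1.52 ± 0.33 and the malate dehydrogenases MDH2 and MDH1 (1 of 2 rows) at -2.79 ± 0.29 and -2.36 ± 0.39 in the authors' deposited table. Liver pyruvate kinase PKLR, which feeds carbon from glucose into the pathway, was called positive at 3.14 ± 0.63, and DLD negative at -0.93 ± 0.29, in the same deposited table of the authors. The part of the muscle RNA of the negative side in these sardine calls was not tested. In mackerel 5 of 16 tested rows were called positive (31.25%) and 2 negative (12.5%), against 14.1% and 10.8% over all rows. The exact test called 1 positive. The citrate carrier SLC25A1, which brings ACLY its substrate, was called positive in 2 of 4 rows, with 62 reads against 25 and 15 against 3. These were the rows with a mean of at least 10. The others had 4 reads against 3 and 1 against 1 and were not called. The oxoglutarate carrier SLC25A11 had 53 against 18, DLD 46 against 23 and PDHB, called negative, 9 against 15.

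In elongation and desaturation 14 of 24 tested rows were called positive (58.3%) and 1 negative (4.17%) in sardine, where the shares over all rows were 30.5% and 16.1%. Of the 24 rows 9 had 0 negative-side reads, and 7 of the positive calls had reads on both sides. In mackerel 5 of 21 were called positive (23.8%) and 1 negative (4.76%), against 14.1% and 10.8% over all rows, and the exact test called 1 positive. ELOVL1, an elongase of very long chains, was called positive in its single sardine row at 2.12 ± 0.65 and in 1 of 2 mackerel rows at 1.25 ± 0.22 (63 reads against 20) in the authors' deposited tables. CYB5A, an electron donor of the desaturases, was called positive in both sardine rows, the better covered at 2.94 ± 0.67, and in 1 of 2 tested mackerel rows at 0.78 ± 0.22, in the authors' deposited tables. Its other tested mackerel row had 18 reads against 9 and was not called. CYB5R3, the reductase that recharges it, was called positive in sardine at 3.54 ± 0.64 in the authors' deposited table. In mackerel its better covered row, with 13 reads against 10, was not called at 0.04 ± 0.24, and the other, with 13 against 5, was called positive at 0.77 ± 0.28 there. In sardine the authors' deposited table put FADS2 at 2.01 ± 0.58, and DBI, with 0 negative-side reads, was called positive too. SCD5, another stearoyl-CoA desaturase, was called positive in sardine at 1.09 ± 0.42 (60.3 against 28.3 scaled reads) and had 4 reads against 2 in mackerel (adjusted p 0.664 in the authors' deposited table). The ketoacyl reductase HSD17B12 was called positive in 1 of 2 mackerel rows, with 21 reads against 9.

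Glycerolipid assembly had 8 of 16 tested rows called positive (50%) and 1 negative (6.25%) in sardine, against 30.5% and 16.1% over all rows. There 7 of the 16 rows had 0 negative-side reads, and 3 of the positive calls had reads on both sides. In mackerel 4 of 13 were called positive (30.8%) and 2 negative (15.4%), against 14.1% and 10.8%, and the exact test called 1 positive. The acyltransferase MOGAT2 was called positive in sardine, with 0 negative-side reads, and in 1 of 2 mackerel rows, with 223 reads against 102. GPD1, which makes glycerol phosphate, was called positive in sardine in both rows, at 18.0 against 5.31 scaled reads in the one with reads on both sides. The triglyceride transfer protein MTTP was called positive in mackerel at 0.59 ± 0.23, and glycerol kinase GK negative in 1 of 2 rows at -0.73 ± 0.26, in the authors' deposited table.

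The regulators were thinly covered. In sardine 5 of 10 tested rows of the transcription regulators were called positive (50%) and 1 negative (10%), against 30.5% and 16.1% over all rows. Of these 10 rows 8 had reads on 1 side only. In mackerel 4 of 18 were called positive (22.2%) and 2 negative (11.1%), against 14.1% and 10.8% over all rows, and the exact test called 0. There FBXW7, the ubiquitin ligase subunit that marks sterol-regulated factors for decay, was called positive in 1 of 3 rows with 46 reads against 16. SREBF1, the main transcription factor of lipogenesis, had 0 reads against 1 in mackerel and no row in sardine. SREBF2 had 3 against 1 in mackerel and was not called in either table. THRSP, the relative of MID1IP1 in mammals, had no row in either table. Of the genes that control the carboxylases, 2 of 9 tested rows were called positive and 2 negative in sardine (22.2% each), against 30.5% and 16.1% over all rows. In mackerel 0 of 9 were called positive and 1 negative by the authors' DESeq2 test (0 and 2 at an unadjusted p under 0.05, and 0 and 0 by the exact test), the negative one being the phosphatase subunit PPP2CA with 9 reads against 13. The shares called by the authors' test were 0% and 11.1%, against 14.1% and 10.8% over all rows.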

How the data were processed

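For each species the authors deposited 1 DESeq2 result table. Per the file headers each row gives a mean normalized count, used here as a signal, a log2 fold change with its SE, a Wald statistic, which is a score, and p-values before and after adjustment. Per the submitters' processing notes CASAVA 1.8, DESeq2 and the zebrafish build GRCz10 were used. The sources used here name no aligner or counter. The depth per fish is unknown. Adjusted p imply 12737 tests in sardine and 7048 in mackerel, so the tables hold part of each fit.

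Whole reads were recovered from the means. In mackerel all 9191 rows fitted 1 number per side plus a constant of 1.66 of unknown origin (largest residual 3.77e-06), giving 376343 positive-side and 332486 negative-side reads. In sardine all 5123 rows with a mean up to 5 had a single solution of 6 numbers, 5 positive and 1 negative; their negative reads numbered 7284 and those of the positive-side libraries 5567 to 10200. Deposited fold changes of 733 such rows with at least 3 reads per side matched if the negative number filled 5 equal columns (median difference 0.01), not 1 column (2.34). For other sardine rows the negative number was estimated from mean and fold change. Intervals and floors (3 reads over a side) cover counting error only, not the spread between fish. A fold over a floor leaves out the counting error of the side with reads. PCR copies are not independent molecules, so the intervals may be too narrow. Recovery and the exact binomial test were also run on simulated Poisson counts made on the same fitted grid. Such counts hold no spread between fish and no PCR copies, and they cannot show whether the grid is right.

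Members and lists were chosen with earlier results of these data known. All member rows are named. Of each list, genes called with a mean of at least 10 are named, at most 6 per list and table, and 1 of them is not reported here; SREBF1, SREBF2, THRSP and further rows of named genes were added after their values were seen. Python 3.11.15, SciPy 1.17.1 and pandas 2.3.3 were used.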

Additional observations from a re-analysis of the deposited data

How the results depend on the processing

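No paired analysis was possible because no source ties an exposed fish to a control fish of the same number and the tables have no columns for single fish. Chosen after seeing the data, each of the 5 recovered sardine libraries was left out in turn for the positive-side level of 8 member rows; the authors' test was not refitted. The fold over the floor then ran from 2.01 to 3.59 for ACLY's predicted record, from 1.44 to 2.60 for FASN and from 0.690 to 1.36 for ACACA. A value under 1 lies under the floor. The level of MID1IP1 NM_213439.1 ran from 0.323 to 0.975. Of the 9 sardine member rows (5 positive and 2 negative calls) 3 and 1 were called at an adjusted p under 0.01, 1 and 0 with a mean of at least 10, 2 and 1 in curated records and, chosen after seeing the data, 1 and 1 in rows with reads on both sides; with 1 row per symbol 1 was called negative. Of the mackerel members (0 and 3) 1 was called negative at 0.01, 4 at 0.1 and 1 by the exact test, where FASN and ELOVL6 lost the call. ELOVL6 also lost it when adjusted over all rows. With a mean of at least 10, 2 of 2 rows were called negative, and PGD gained a call. FASN and ELOVL6 had lower means and were not among these rows. For the sardine pathway lists (41 and 11) the negative calls were 18 at 0.1, the calls were 20 and 6 at 0.01 and 11 and 7 at a mean of at least 10, and 13 were positive with reads on both sides. For the mackerel lists (23 and 11) they were 18 negative at 0.1, 15 and 6 at 0.01, 14 and 6 at a mean of at least 10, and 4 and 1 by the exact test. These counts fall with fewer rows or stricter limits by construction. Rows with a mean of at least 10 had a median log2 fold change of 0.76 in sardine and 0.10 in mackerel; relative to it the curated ACLY record stood at 1.25. No member row changed sign under the alternatives run.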
